A study of Sorghum bicolor with 9 samples.

Results

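The deposited expression table of sorghum leaves gives the family label Catalase to 3 genes of 35281, and membership follows from that label. They are Sobic.010G274500, Sobic.004G011566 and Sobic.001G517700. All 3 were among the 22356 genes with enough reads to be tested. A further 11022 genes of the table carry some other protein family label.

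Leaf RNA of wild-type Sorghum bicolor BTx623, an inbred line, was sequenced from plants with 4 leaves in 3 groups of 3 biological replicates, 9 libraries in all. Control plants grew under normal conditions, and the labels do not state the salt or pH of their soil. Moderate plants grew in saline-alkali soil with 3‰ salt at pH 8.1, and severe plants in soil with 5‰ salt at pH 8.1. One tag of the stressed samples writes the same digits as percent, whereas the titles and the series design give ‰, which is followed here.

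Catalases are haem enzymes of the peroxisome that split hydrogen peroxide into water and oxygen. In leaves much of that peroxide comes from glycolate oxidase, the peroxisomal enzyme that oxidises glycolate during photorespiration, and more comes from the breakdown of fatty acids. Sorghum is a C4 plant, a group in which photorespiration is low and takes place mainly in the bundle sheath cells around the veins. Plants carry small catalase families, and in maize and Arabidopsis the members differ in the tissue and the time of day at which they are expressed. The table does not say which member of another species each sorghum gene corresponds to.

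The 3 genes lie on different chromosomes. Sobic.010G274500 spans bases 60781016 to 60785777 of chromosome 10 on the plus strand. Sobic.004G011566 spans 947826 to 950478 of chromosome 4 on the minus strand. Sobic.001G517700 spans 78383473 to 78386988 of chromosome 1 on the plus strand. Positions follow the deposited table, and its build is not named in the sources used here. No other gene of the table overlaps any of the 3, so their reads are not shared with an overlapping locus, although reads shared between the catalases themselves cannot be seen in a count table.

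Total counts ran from 17792497 to 22449989 per library. The severe libraries differed most among themselves, and their normalisation factors were 0.512 (replicate 1), 0.858 and 0.973, beside 1.33 to 1.41 in moderate and 0.904 to 1.02 in control libraries. Levels below are normalised CPM, the counts of a gene scaled to the normalised library size, unless named otherwise. The lowest catalase count in any library was 675 reads (95% exact Poisson interval 625 to 728, counting error only), so counting error was small beside the spread between libraries. Of the marker families looked up for leaf tissue, the labels of chlorophyll a/b-binding proteins, the small Rubisco subunit and phosphoenolpyruvate carboxylase occur on no gene of the table. The label of malic enzymes, which also act outside leaves, occurs on 2 genes with 375 to 1658 reads per library together, and that of the large Rubisco subunit, whose functional gene lies in the chloroplast genome, on 2 genes with 9 to 141 reads together. The leaf label was not checked further.

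Each catalase had its own pattern across the soils. Sobic.010G274500 was the rare catalase of control leaves and the most counted catalase in every severe library. Sobic.004G011566, the most counted catalase of control leaves, averaged less in each stressed soil and was lowest in 1 severe library. Sobic.001G517700 was lowest in moderate soil and intermediate in severe soil.

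Sobic.010G274500 stood at 70.3, 82.2 and 73.7 normalised CPM in control replicates 1 to 3, at 131, 139 and 156 in moderate and at 2019.7, 937 and 864 in severe. No library of one soil overlapped another soil, and severe replicate 1 was the highest library of all. The group means were 75.4 ± 6.14 in control, 142 ± 12.9 in moderate and 1274 ± 647 in severe leaves (SD, n = 3 each), and the severe mean was 901 without severe replicate 1. Before normalisation it took 0.00635, 0.00831 and 0.00748% of the reads of the control libraries, 0.0175, 0.0196 and 0.0208% of the moderate and 0.103, 0.0804 and 0.0840% of the severe, so that severe replicate 1 was still the highest but by a narrower margin.

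Sobic.004G011566 stood at 1650.1, 1985 and 1678 normalised CPM in control, at 839.6, 755 and 486 in moderate and at 64.3, 337 and 606 in severe. Control libraries were all above the stressed ones, while moderate and severe libraries overlapped, with severe replicate 3 above moderate replicate 3. As a plain share of reads it took 0.149, 0.201 and 0.170% in control and 0.113, 0.106 and 0.0648% in moderate libraries. In severe libraries it took 0.00329, 0.0289 and 0.0589%, and on that scale no soil overlapped another. Its means in normalised CPM were 1771 ± 186 in control, 694 ± 184 in moderate and 336 ± 271 in severe leaves (SD, n = 3 each). The severe mean was 471 without severe replicate 1 and 201 without severe replicate 3. Within severe soil the highest library was 9.43 times the lowest, the widest spread of any catalase in any soil.

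Sobic.001G517700 stood at 1275, 1032 and 1062 normalised CPM in control, at 338, 387 and 284 in moderate and at 628, 503 and 708 in severe. The soils did not overlap, and their order was control, severe, moderate. As a plain share of reads it took 0.115, 0.104 and 0.108% in control, 0.0454, 0.0545 and 0.0378% in moderate and 0.0321, 0.0431 and 0.0688% in severe libraries, and on that scale moderate and severe overlapped. Its means were 1123 ± 133 in control, 336 ± 51.7 in moderate and 613 ± 103 in severe leaves (SD, n = 3 each). Its coefficient of variation in severe soil was 16.9%, against 50.8% for Sobic.010G274500 and 80.7% for Sobic.004G011566. The order of the first 2 depends on the scaling, since on plain read shares the coefficients were 39.2% for Sobic.001G517700, 13.8% for Sobic.010G274500 and 91.7% for Sobic.004G011566.

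**Figure D1:**
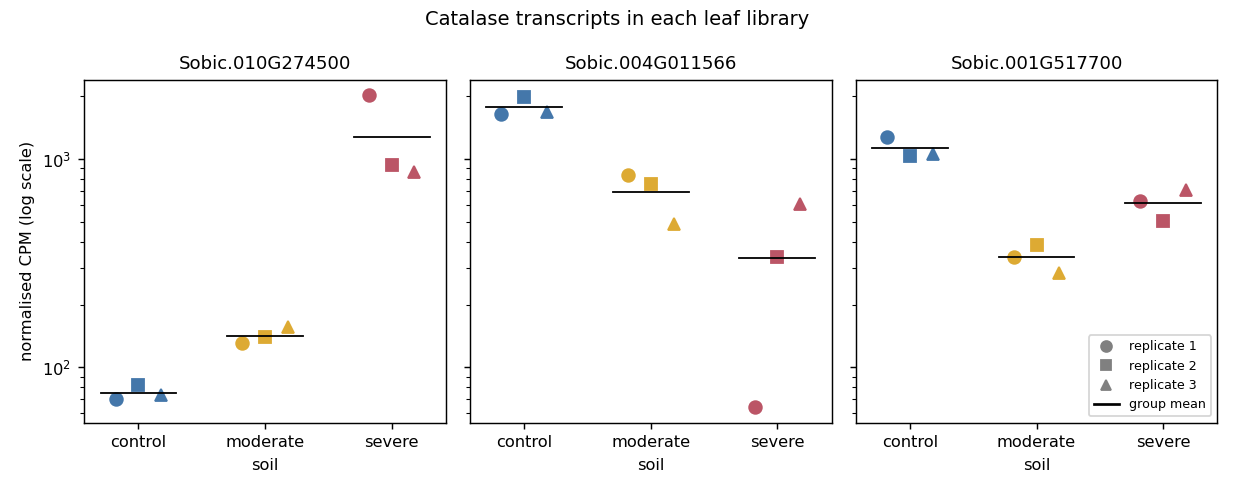
Normalised CPM on a log axis for each catalase in each of the 9 libraries, by soil, with the marker shape giving the replicate and the line the group mean (n = 3). Sobic.010G274500 runs from 70.3 to 2019.7 across the libraries, Sobic.004G011566 is at 64.3 in severe replicate 1, and Sobic.001G517700 has its 3 lowest values in moderate soil.

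Moderate stress against control asked how catalase transcripts differ in soil of 3‰ salt. Sobic.001G517700 fell to 336 CPM in moderate leaves, against 1123 in control leaves, and was the 1 catalase called. The change was -1.74 on the log2 scale (SE 0.46), or 3.34-fold lower, and the quasi-likelihood test of edgeR gave a Benjamini-Hochberg adjusted p = 0.00585 over all tested genes. Of all tested genes, 17.1% were called in this comparison, 8.94% as higher and 8.17% as lower, and 14.0% of tested genes had a larger change than Sobic.001G517700 in either direction. It was called under every one of 17 alternatives, at adjusted p of 1.32e-12 to 0.0342.

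The other 2 catalases did not pass in that fit, although moderate and control libraries did not overlap for either. Of all tested genes, 27.8% had all moderate libraries above all control libraries and 28.1% had all below. Sobic.010G274500 differed by 0.91 on the log2 scale (SE 0.42), a 95% interval of 0.09 to 1.74, with adjusted p = 0.111 by edgeR. Sobic.004G011566 differed by -1.35 (SE 0.73), an interval of -2.79 to 0.09, with adjusted p = 0.183 by edgeR. These 2 calls changed with the severe libraries in the fit, which share the estimate of spread. When the fit held only the 6 libraries of these soils, adjusted p by edgeR was 0.00116 for Sobic.010G274500 and 0.00405 for Sobic.004G011566. Without severe replicate 1 it was 0.00592 and 0.0146, and without severe replicate 2 neither passed (0.0928 and 0.204). Sobic.010G274500 was also called without severe replicate 3 (0.0433) and with scaling by total counts alone (log2 1.39, adjusted p = 0.00518 by edgeR). Over all alternatives the adjusted p ran from 0.00116 to 0.280 and from 0.00405 to 0.432. The authors' deposited table gives log2 changes of 0.93, -1.34 and -1.72 for Sobic.010G274500, Sobic.004G011566 and Sobic.001G517700, with adjusted p of 6.64e-09, 1.18e-07 and 2.44e-19, and calls 36.3% of the genes to which it gives an adjusted p.

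Between severe stress, in soil of 5‰ salt, and control all 3 catalases were called, 1 higher and 2 lower. Calls were common here, since 66.5% of all tested genes passed, 31.6% as higher and 34.9% as lower, so being called does not set a catalase apart. Severe and control libraries did not overlap for any catalase, which was so for 32.8% of all tested genes with severe above control and 39.3% with severe below. The size of the rise in Sobic.010G274500 was in the upper range of the table.

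Sobic.010G274500 rose to 1274 CPM in severe leaves, against 75.4 in control leaves, a log2 change of 4.08 (SE 0.86) or 16.9-fold, with adjusted p = 5.35e-05 by edgeR. Of all tested genes, 92.7% had a lower log2 change, and 14.0% had a larger one in either direction. Without severe replicate 1 the log2 change was 3.57. Sobic.004G011566 fell to 336 CPM in severe leaves, against 1771 in control leaves, a log2 change of -2.40 (SE 0.87) or 5.27-fold lower, with adjusted p = 0.0109 by edgeR. That change was -1.92 without severe replicate 1 and -3.06 without severe replicate 3, and it was called in both. Sobic.001G517700 fell to 613 CPM in severe leaves, against 1123 in control leaves, a log2 change of -0.87 (SE 0.35) or 1.83-fold lower, with adjusted p = 0.0216 by edgeR. Of all tested genes 70.5% changed by more than Sobic.001G517700. Its call was lost without control replicate 1 (adjusted p = 0.0737 by edgeR) or severe replicate 2 (0.0561), with only the 6 libraries compared (0.0503) and with median-of-ratios scaling (0.0501), over alternatives that ranged from 0.00147 to 0.0737. The authors' deposited table gives 4.19, -2.39 and -0.80 on the log2 scale for the 3 genes in the same order, with adjusted p of 7.86e-17, 0.00139 and 0.00634, and calls 54.0% of its genes.

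Severe against moderate stress asked what differs between the 2 stressed soils. Here 2 catalases rose, where 63.2% of all tested genes were called, 29.6% as higher and 33.6% as lower. The 2 soils did not overlap for these catalases, which was so for 30.8% of all tested genes with severe above moderate and 38.8% with severe below. Sobic.010G274500 rose to 1274 CPM in severe leaves, against 142 in moderate leaves, a log2 change of 3.17 (SE 0.73) or 8.97-fold, with adjusted p = 0.000182 by edgeR. Sobic.001G517700 rose to 613 CPM in severe leaves, against 336 in moderate leaves, a log2 change of 0.86 (SE 0.35) or 1.82-fold, with adjusted p = 0.0239 by edgeR. Sobic.004G011566 averaged 336 CPM in severe leaves and 694 in moderate leaves, a log2 difference of -1.05 (SE 0.71) with an interval of -2.43 to 0.33 and adjusted p = 0.180 by edgeR. Without severe replicate 3 that difference was -1.73 and was called (adjusted p = 0.0454 by edgeR, the lowest of alternatives that reached 0.327), and without severe replicate 1 it was -0.57. The call for Sobic.001G517700 was lost without moderate replicate 1 (adjusted p = 0.0556 by edgeR) or moderate replicate 3 (0.0964), and with only the 6 libraries compared (0.0646), over alternatives from 4.08e-05 to 0.866. Scaling by total counts alone gave that 0.866 at a log2 change of 0.065, beside a median of -0.98 over all tested genes under the same scaling. The authors' deposited table gives 3.25, -1.06 and 0.91 on the log2 scale for Sobic.010G274500, Sobic.004G011566 and Sobic.001G517700, with adjusted p of 2.33e-10, 0.193 and 0.00573, and calls 51.5% of its genes.

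**Figure D2:**
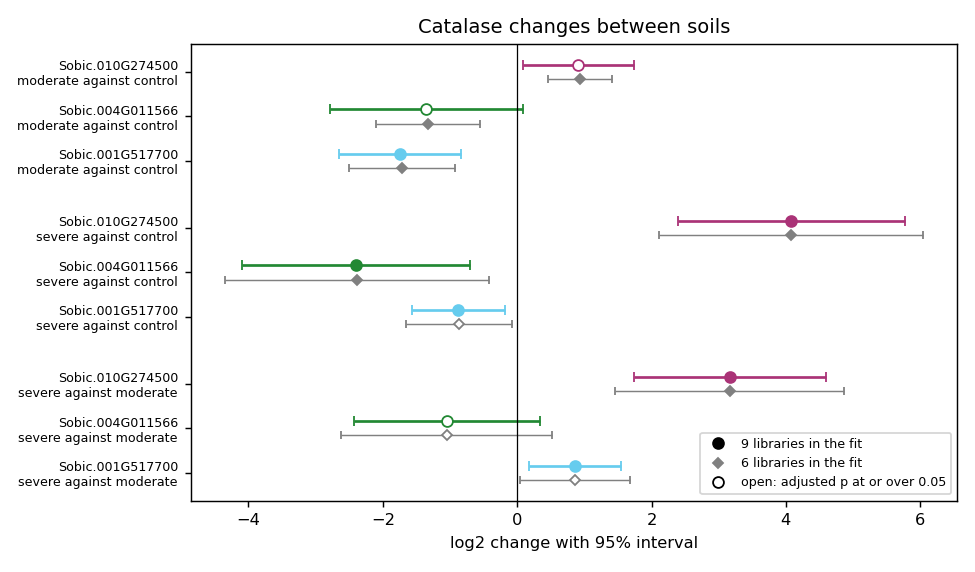
Log2 change of each catalase in the 3 comparisons, with 95% intervals as bars, from the fit to all 9 libraries (coloured circles) and from the fit to the 6 libraries compared (grey diamonds), where open markers have an adjusted p of 0.05 or more. The changes from the 2 fits differ by at most 0.02, and the bars are narrower without the severe libraries in the comparison of moderate with control.

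The order of levels followed from these tests. For Sobic.010G274500 severe was above moderate, and moderate was not separated from control in the fit to all 9 libraries. For Sobic.004G011566 control was above severe, and moderate was not separated from either neighbour in that fit. For Sobic.001G517700 each step of control, severe and moderate was called in that fit, although both the step from control to severe and the one from severe to moderate lost the call under the alternatives given above.

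Ratios between 2 catalases of the same library do not depend on how libraries are scaled. Sobic.004G011566 had 23.5, 24.1 and 22.8 reads for each read of Sobic.010G274500 in control replicates 1 to 3, and 6.43, 5.43 and 3.12 in moderate. In severe soil the ratio lay the other way, with 31.4, 2.78 and 1.43 reads of Sobic.010G274500 for each read of Sobic.004G011566. The soils did not overlap in this ratio. The log2 ratio of Sobic.010G274500 to Sobic.004G011566 averaged -4.55 ± 0.04 in control, -2.26 ± 0.55 in moderate and 2.32 ± 2.35 in severe libraries (SD, n = 3 each). An exact permutation test over all 1680 assignments of the 9 libraries to 3 soils gave p = 0.00357, the smallest it can give, and 0.00536 after Benjamini-Hochberg adjustment over the 3 ratios compared. The severe mean lay 6.87 above the control mean, or 5.55 without severe replicate 1 and 7.78 without severe replicate 3. The moderate mean lay 2.30 above the control mean, in 3 of 3 libraries, and a comparison of 3 libraries with 3 cannot give an exact p below 0.1.

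The ratio of Sobic.010G274500 to Sobic.001G517700 followed the same order of soils. Its log2 value averaged -3.89 ± 0.27 in control, -1.24 ± 0.33 in moderate and 0.96 ± 0.70 in severe libraries (SD, n = 3 each), without overlap, and the exact permutation test again gave p = 0.00357 (adjusted 0.00536). The third ratio set the 2 catalases that led in control leaves against each other. The log2 ratio of Sobic.004G011566 to Sobic.001G517700 averaged 0.66 ± 0.29 in control, 1.02 ± 0.27 in moderate and -1.36 ± 1.68 in severe libraries (SD, n = 3 each). Control and moderate libraries overlapped, and all severe libraries were below 0 while all others were above. The exact permutation test gave p = 0.00714 (adjusted 0.00714), which was 0.05 to 0.0571 without control replicate 1 or 3 or moderate replicate 1 or 2. In severe replicate 1 Sobic.001G517700 had 9.76 reads for each read of Sobic.004G011566, against 1.49 and 1.17 in severe replicates 2 and 3, and the severe mean minus the control mean was -1.06 without severe replicate 1 and -2.02 with it.

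**Figure D3:**
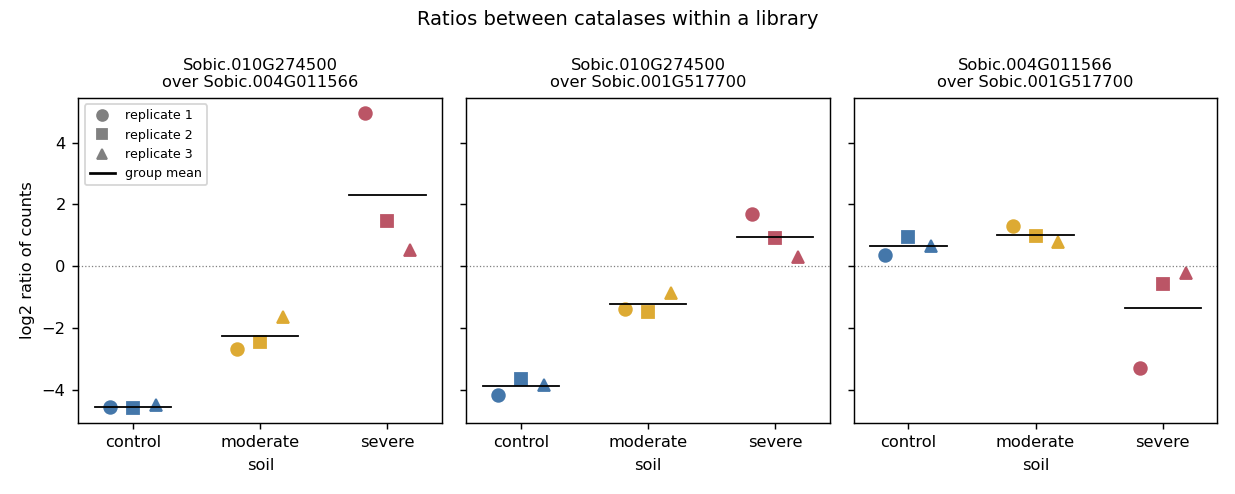
Log2 ratio of the counts of 2 catalases within each library, by soil, with the marker shape giving the replicate and the line the group mean (n = 3). Both ratios with Sobic.010G274500 on top are below 0 in all control and moderate libraries and above 0 in all severe ones, and severe replicate 1 stands at 4.97 for the ratio to Sobic.004G011566.

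Levels of different genes were compared by the deposited FPKM, a level per kilobase of gene length. They divide by the whole genomic span of 4762 bases for Sobic.010G274500, 2653 for Sobic.004G011566 and 3516 for Sobic.001G517700, introns included. Their library scaling is not that of total counts. Sobic.010G274500 took 0.103 and 0.0804% of the reads of severe replicates 1 and 2, but 488 and 199.6 FPKM. Levels by FPKM are therefore best read within a library. In control leaves Sobic.004G011566 led with 646 ± 62.6 FPKM, followed by Sobic.001G517700 with 310 ± 37.4 and Sobic.010G274500 with 15.3 ± 1.14 (SD, n = 3 each). The first 2 ranked 71 to 86 and 129 to 141 among all genes of the table, and the third 2916 to 3449. In moderate leaves the order was the same, at 253 ± 68.7, 92.6 ± 14.2 and 28.8 ± 2.45 FPKM (SD, n = 3 each).

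In severe leaves the order by length-scaled level differed between libraries. Severe replicate 1 held 488 FPKM of Sobic.010G274500, 206 of Sobic.001G517700 and 27.9 of Sobic.004G011566. Severe replicate 2 held 199.6, 145 and 129 FPKM in the same gene order. Severe replicate 3 held 175 FPKM of Sobic.010G274500, 194 of Sobic.001G517700 and 219.6 of Sobic.004G011566, so there the control order remained by length-scaled level. By plain reads the order in that library was the reverse, at 39.7, 32.5 and 27.8% of its catalase reads. By FPKM Sobic.010G274500 ranked 253 to 300 among all genes in the severe libraries.

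As a share of the catalase pool per length, Sobic.010G274500 made up 1.48, 1.63 and 1.63% in control, 6.23, 6.89 and 11.0% in moderate and 67.7, 42.2 and 29.7% in severe libraries. Sobic.004G011566 made up 62.2, 70.7 and 66.6% in control, 71.9, 67.1 and 61.8% in moderate and 3.87, 27.2 and 37.4% in severe libraries. The share of Sobic.001G517700 lay between 21.9 and 36.3% in all 9 libraries. In severe libraries the mean shares were 46.5 ± 19.4% for Sobic.010G274500 and 22.8 ± 17.2% for Sobic.004G011566, against 1.58 ± 0.0881% and 66.5 ± 4.21% in control libraries (SD, n = 3 each).

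**Figure D4:**
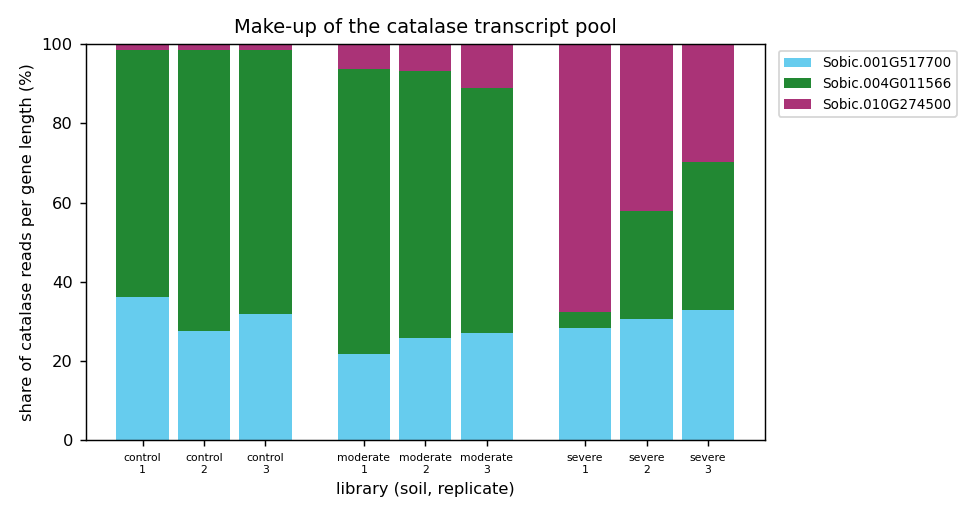
Share of each catalase in the catalase reads of a library after division by the gene length of the deposited table, in percent, for the 9 libraries by soil. The Sobic.010G274500 part grows to between 29.7 and 67.7% in severe libraries, while the Sobic.001G517700 part stays between 21.9 and 36.3%.

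The 3 genes together summed to 2996, 3099 and 2813 normalised CPM in control, 1309, 1282 and 926 in moderate and 2712, 1776 and 2178 in severe libraries. Every stressed library was below every control library, and moderate libraries were below severe ones. The severe and moderate levels of this sum depend on the scaling. As a plain share of each library's reads the catalases took 0.271, 0.313 and 0.286% in control, 0.176, 0.180 and 0.123% in moderate and 0.139, 0.152 and 0.212% in severe libraries, and there moderate and severe overlapped. In a leaf sample fewer cells of a type and less RNA per cell cannot be told apart.

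Across the 9 libraries the log2 levels of Sobic.010G274500 and Sobic.004G011566 had a Pearson r of -0.88, those of Sobic.010G274500 and Sobic.001G517700 one of -0.22, and those of Sobic.004G011566 and Sobic.001G517700 one of 0.41. These are descriptions over 9 libraries that share 3 soils. They hold for normalised CPM, and r was not computed on plain read shares. The values with Sobic.001G517700 depend on that scaling. At 628 normalised CPM in severe replicate 1, Sobic.001G517700 was above every moderate library, of which the highest was at 387. As a plain share of reads, at 0.0321%, it was below every moderate library, of which the lowest was at 0.0378%. The r of -0.22 and 0.41 therefore do not show that Sobic.001G517700 varied apart from the other catalases. Severe replicate 1 had the highest Sobic.010G274500 and the lowest Sobic.004G011566 of the severe libraries, and moderate replicate 3 did so among the moderate ones.

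Among 5765 genes with a family label and at least 5 CPM, those most like Sobic.010G274500 over the 9 libraries (Pearson r of log2(CPM + 1), no test) were Sobic.004G270500, Sobic.001G522100 and Sobic.001G350700, with r of 0.997, 0.997 and 0.996. Sobic.004G270500 carries the label AOX, that of alternative oxidases, and averaged 31.8 ± 0.816 CPM in control, 53.5 ± 1.83 in moderate and 355 ± 119 in severe leaves (SD, n = 3 each). Sobic.001G522100 is labelled as a sodium and proton exchanger and Sobic.001G350700 as a protein kinase. All 3 had their highest normalised value in severe replicate 1, at 490.2, 171 and 578 CPM. With total counts alone Sobic.004G270500 stood at 251, 262 and 260 CPM in severe replicates 1 to 3, so replicate 1 was then its lowest severe library, while it was still the highest for Sobic.001G522100 (87.2 CPM) and Sobic.001G350700 (296 CPM).

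For Sobic.004G011566 the nearest were Sobic.001G145400 (tRNA synthetase label), Sobic.009G104100 (M24 peptidase) and Sobic.006G179600 (RWP-RK, a plant transcription factor family), with r of 0.981, 0.977 and 0.976. With total counts alone moderate and control libraries overlapped for Sobic.001G145400 and Sobic.009G104100, but not for Sobic.006G179600. Sobic.001G145400 then stood at 64.2, 74.9 and 75.3 CPM in control and 71.0, 76.9 and 66.3 in moderate. For Sobic.001G517700 the nearest were Sobic.010G182600 (translational GTPase), Sobic.009G180800 (class III aminotransferase) and Sobic.001G484400 (E1-E2 ATPase), with r of 0.981, 0.981 and 0.967. Sobic.009G180800 also had its lowest normalised mean in moderate soil, at 210 ± 34.4 CPM in control, 54.8 ± 9.09 in moderate and 103 ± 22.2 in severe leaves (SD, n = 3 each). With total counts alone moderate and severe libraries overlapped for all 3 genes most like Sobic.001G517700. Sobic.010G182600 then stood at 367, 450 and 393 CPM in moderate and 223, 349 and 434 in severe.

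The nearest gene on either side of each catalase was read for comparison, and Sobic.010G274400, to the left of Sobic.010G274500, had no reads in any library. Sobic.010G274600, a WD40 gene, begins at the base after the end of Sobic.010G274500 on the same strand, and it averaged 33.1 CPM in severe leaves and 10.2 in control leaves (log2 1.70, adjusted p = 0.0309 by edgeR). In moderate leaves it averaged 7.03 CPM. Whether reads that run past the catalase's end take part in that value was not tested. Sobic.001G517800, a gene with the RWP-RK label 7675 bases to the right of Sobic.001G517700, averaged 431 CPM in severe leaves and 50.2 in control leaves, while the catalase was lower in severe leaves. The HSP70 gene Sobic.004G011700, to the right of Sobic.004G011566, averaged 322 CPM in moderate leaves and 179.7 in control leaves and was not called in any comparison. The unlabelled left neighbours of both falling catalases were called lower in severe against control, as were 34.9% of all tested genes. Sobic.004G011433 averaged 2.03 CPM in severe leaves and 4.50 in control leaves (log2 -1.14), and Sobic.001G517600 averaged 65.1 in severe leaves and 142 in control leaves (log2 -1.13).

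Other genes that make or remove peroxide were counted by family label. Labels for superoxide dismutases, haem peroxidases, peroxiredoxins, thioredoxins and acyl-CoA oxidases occur on no gene of the table, so these families are not described. The counts below stand beside 17.1% of all tested genes called in moderate against control and 66.5% in severe against control, the 66.5% made up of 31.6% as higher and 34.9% as lower. Several lists had no call in moderate against control by edgeR, and their counts at an unadjusted p under 0.05, and by DESeq2 after adjustment, were 0 and 0 of 6 for FMN_dh, 0 and 0 of 1 for GCV_T, 2 and 1 of 4 for SHMT, 2 and 1 of 8 for Aminotran_5, and 0 and 0 of 5 for zf-LSD1. Glutathione peroxidases (GSHPx), which reduce peroxides with thiols, numbered 8, and all 8 were tested. In moderate against control 0 rose and 2 fell (1 with total counts), and in severe against control 5 rose and 3 fell, where 66.5% of all tested genes were called, and the median log2 change was 1.04 beside -0.19 over all tested genes. The most abundant, Sobic.006G173900, stood at 158, 161 and 112 CPM in control, 314, 182 and 205 in moderate and 1885, 689 and 305 in severe. Its severe libraries were all above control, severe replicate 1 was again highest, and the rise was called (log2 2.74, SE 0.85, adjusted p = 0.00334 by edgeR). Sobic.010G067100, like Sobic.001G517700, had its lowest normalised mean in moderate soil, with 285 ± 34.8 CPM in control, 53.3 ± 9.33 in moderate and 84.5 ± 18.2 in severe leaves (SD, n = 3 each), and it was called lower in both stressed soils. As a plain share of reads the mean of Sobic.010G067100 was lowest in severe soil.

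Glycolate oxidases and their kin (FMN_dh) numbered 6. In moderate against control 0 rose and 0 fell, and in severe against control 0 rose and 5 fell, and the median log2 change was -2.52 beside -0.19 over all tested genes. The label also covers other 2-hydroxy-acid oxidases and does not tell which members act in photorespiration. The most abundant, Sobic.002G036000, stood at 293, 369 and 272 CPM in control, 422, 364 and 359.9 in moderate and 49.8, 94.3 and 13.0 in severe. It did not pass between moderate and control, where Sobic.001G517700 fell, and it fell in severe leaves, with a log2 change of -2.57 (SE 0.81, adjusted p = 0.0037 by edgeR). Sobic.002G374700 averaged 1.19 ± 1.11 CPM in severe leaves and 18.5 ± 1.08 in control leaves (SD, n = 3 each).

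Photorespiratory glycine and serine metabolism was covered by 3 labels. The 1 gene labelled as an aminomethyltransferase (GCV_T), a subunit of glycine decarboxylase or a related enzyme, Sobic.006G220800, averaged 6.36 ± 2.86 CPM in severe leaves and 115 ± 11.3 in control leaves (SD, n = 3 each), a called log2 change of -4.18. It averaged 120.4 ± 12.8 CPM in moderate leaves, where it was not called. Of 4 serine hydroxymethyltransferases (SHMT) none was called in moderate against control, and 1 rose and 1 fell in severe against control, which became 0 and 2 with total counts, with a median log2 change of -0.16 beside -0.19 over all tested genes. The most abundant, Sobic.008G144800, averaged 241 ± 121 CPM in severe leaves and 200.5 ± 6.64 in control leaves (SD, n = 3 each) and was not called, while Sobic.001G097100 fell by 1.03 on the log2 scale in severe leaves. Of 11 class V aminotransferases (Aminotran_5), the family that includes the serine-glyoxylate aminotransferase of the peroxisome, 8 were tested, 0 were called in moderate against control, and 4 rose and 3 fell in severe against control, where 31.6% of all tested genes rose and 34.9% fell. Their median log2 change was 1.12, beside -0.19 over all tested genes. The most abundant of these, Sobic.007G213700, was not called in either, with 816 ± 588 CPM in severe leaves and 357 ± 90.3 in control leaves (SD, n = 3 each).

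A further 3 labels were added after the table's labels were seen. LSD1-type zinc fingers (zf-LSD1), a family named for an Arabidopsis regulator of cell death that binds catalases, numbered 5. None was called in moderate against control (1 as higher with total counts), and 1 rose and 2 fell in severe against control. The median log2 change was -1.12, beside -0.19 over all tested genes. The most abundant, Sobic.007G050100, fell to 4.93 ± 2.52 CPM in severe leaves, against 157 ± 21.6 in control leaves (SD, n = 3 each). The 1 that rose averaged 124 ± 60.7 CPM in severe leaves and 23.1 ± 4.61 in control leaves (SD, n = 3 each), a log2 change of 2.42. The 1 gene with a ferric reductase-like domain (Ferric_reduct), a domain that also occurs in the NADPH oxidases that make superoxide, is Sobic.006G093100. It averaged 190.2 ± 82.1 CPM in control, 47.2 ± 6.11 in moderate and 7.56 ± 2.87 in severe leaves (SD, n = 3 each) and was called lower in each stressed soil, in moderate soil not with total counts. Of 25 pyridine nucleotide-disulphide oxidoreductases (Pyr_redox_2), a broad family that includes glutathione reductase, 20 were tested, of which 1 rose and 4 fell in moderate (5 and 2 with total counts) and 11 rose and 4 fell in severe against control, where 31.6% of all tested genes rose and 34.9% fell. Their median log2 change was 1.45, beside -0.19 over all tested genes. The most abundant, Sobic.002G133800, rose to 1625 ± 1309 CPM in severe leaves, against 163 ± 20.6 in control leaves (SD, n = 3 each).

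**Figure D5:**
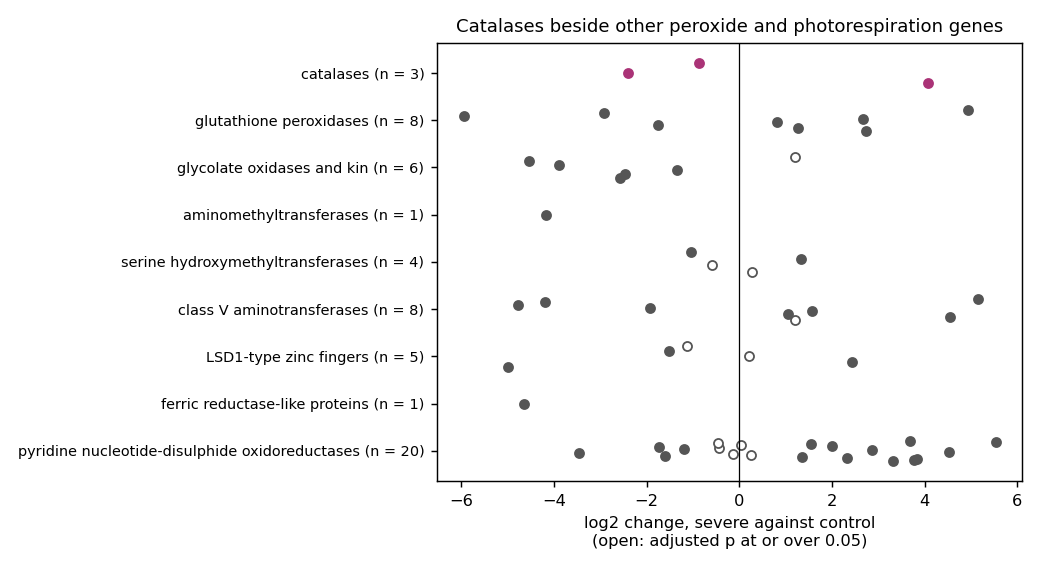
Log2 change of every tested member in severe against control leaves for the catalases and 8 other family labels, with filled points for an adjusted p under 0.05 in edgeR's test. The catalases lie at -2.40, -0.87 and 4.08, and 5 of 6 glycolate oxidases and kin are filled on the negative side.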

How the data were processed

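The authors sequenced leaf RNA in 9 libraries, 3 per soil. Reads were aligned with HISAT2 2.0.5 and fold changes made with DESeq2 1.20.0, per the submitters' processing notes. The read counter, genome build and strandedness are not named in the sources used here. The deposited counts are raw whole numbers per gene. The FPKM deposited by the authors divide by a gene length that is the genomic span for the catalases. The authors' deposited log2 fold changes and adjusted p-values are quoted as such.

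Main tests used edgeR 4.0.16 under R 4.3.3 (filterByExpr, TMM, quasi-likelihood F-test on all 9 libraries, 2-sided, Benjamini-Hochberg, threshold 0.05). SE is the log2 change over the normal quantile of its p-value, and 95% intervals follow from it. DESeq2 1.42.0 and limma 3.58.1 served as alternatives. The procedure was tested on simulated data. Replicates of a soil differed by more than counting noise (chi-square per degree of freedom 17.6 to 308).

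The catalase family was picked for description, and the lists drawn up, with earlier results of these data known, while the members of each follow from the table's label. Named genes are all catalases, the most abundant member of each list and its called member with the smallest p, of which examples are printed, and the 3 labelled genes most like each catalase. Product names were not available for the lists, so only family labels were used. No catalase sequence was used here.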

Additional observations from a re-analysis of the deposited data

How the results depend on the processing

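No catalase changed direction under any of the 17 alternatives per comparison, and DESeq2, limma with a pseudocount of 1 or 0.1, no filter on low counts and the replicate block left each catalase call as it was. The limma fits used the deposited FPKM, which are not scaled by total counts, so they do not stand in for that scaling. For moderate against control, Sobic.010G274500 was called with total counts only (log2 1.39) and with only the 6 libraries compared (0.93), and Sobic.004G011566 with only the 6 libraries (-1.33). For severe against control, Sobic.001G517700 was not called with median-of-ratios size factors (-0.76) or with only the 6 libraries (-0.87). For severe against moderate, it was not called with total counts only (0.065) or with only the 6 libraries (0.86). Total counts move the median log2 change of all tested genes from 0.01 to 0.49, from -0.19 to -0.49 and from -0.20 to -0.98 in the 3 comparisons, so 0.065 stands beside a median of -0.98. They also move the higher and lower calls from 1998 and 1827 to 3707 and 704 in moderate against control, and from 6624 and 7506 to 3729 and 10094 in severe against moderate.

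Leaving out each library in turn gave log2 changes of 0.86 to 0.99, -1.49 to -1.13 and -1.83 to -1.61 for Sobic.010G274500, Sobic.004G011566 and Sobic.001G517700 in moderate against control. In severe against control they were 3.57 to 4.31, -3.06 to -1.92 and -0.96 to -0.76, and in severe against moderate 2.66 to 3.37, -1.73 to -0.57 and 0.73 to 0.98. The log2 ratio of Sobic.004G011566 to Sobic.001G517700 differed from control by -2.59 to -1.06 in severe and by 0.21 to 0.50 in moderate, and severe differed from moderate by -2.95 to -1.42. Genes called in moderate against control numbered 3825, or 1488 to 7368 without a single library, 6191 by DESeq2 and 9503 with only the 6 libraries. The causes were not tested.

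With total counts only the summed catalase level was 1598 CPM in moderate and 1675 in severe leaves, against 1172 and 2222 with TMM. The counts of list members that moved by over 1.5 times with total counts were, for moderate against control, GSHPx lower 1, zf-LSD1 higher 1, Ferric_reduct lower 0 and Pyr_redox_2 higher 5 and lower 2. For severe against control they were SHMT higher 0 and lower 2, and for severe against moderate GSHPx higher 2, FMN_dh higher 0, SHMT lower 2 and Pyr_redox_2 lower 5.

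Deviations from the soil mean had r of -0.04 to 0.26 between same-numbered libraries of different soils. Between differently numbered ones r was -0.25 to 0.12. The main fit did not use the numbers, and a fit with them as a replicate block was run as an alternative. With the replicate block the genes called were 3533, 14606 and 13915 in the 3 comparisons, against 3825, 14858 and 14130, and permuting labels within a replicate number gave p = 0.0278 for each ratio with Sobic.010G274500 on top, the smallest that permutation can give. Shares per coding length were not run, since no protein lengths of the catalases were at hand. The adjusted p of moderate against control changed with the severe libraries in the fit.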
